A study of Rattus norvegicus with 6 samples.

Results

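The genes described are those of the collagen chains, read by 60-base probes on whole-genome rat arrays in lungs taken after inhalation of particles. A probe was counted as a collagen chain where the gene name in the scanner file, after a trailing note of prediction or mapping was removed, began with Col, then 1 or 2 digits, the letter a and a digit. Of 41012 probes on the array, 45 matched and named 31 genes. One of them, Col4a3bp, encodes the ceramide transfer protein and not a collagen, and was kept apart, which left 30 chains. Of these, 27 were well above the local background on every array of at least 1 group and were tested among 25188 genes. Col9a3, Col11a1 and Col17a1 were not. Each gene was read from its brightest probe.

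Male Wistar rats, 9 weeks old, breathed clean air (control), an aerosol of C60 fullerene (a closed carbon cage) or one of ultrafine nickel oxide (NiO, the study's positive control), with no other agent or genetic change in any group. Whole-body exposure lasted 6 hours a day on 5 days a week for 4 weeks, and lungs were taken 3 days or 1 month (33 days) after it ended. The study assigned 5 rats to each group and time and perfused the lungs with saline. RNA came from homogenized whole right lungs, so in these bulk samples fewer cells of a type and less RNA per cell cannot be told apart. Of the 21 arrays used, the 3-day lungs gave 3 for clean air, 2 for the fullerene and 4 for nickel oxide, and each 1-month group gave 4. A level below is the log2 signal of a probe minus the 75th percentile of its array, and a difference is that of 2 group means on this log2 scale, with its standard error (SE). A gene was called where the limma p-value, adjusted by Benjamini-Hochberg over all 25188 genes, was under 0.05. Levels of different probes are not comparable with each other.

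Collagens are the proteins of the extracellular matrix built from 3 chains that wind into a triple helix, in which glycine recurs in a Gly-X-Y repeat. Fibrillar collagens (types I, II, III, V, XI and XXVII) give tissue its tensile strength, type IV forms the sheet of basement membranes, type VI forms beaded filaments beside cells, and type VII anchors basement membranes. Types VIII and X form short-chain networks, the FACIT collagens (IX, XIV, XVI, XXII and relatives) sit on fibrils, types XV and XVIII are multiplexins at basement membranes, and types XIII, XVII, XXIII and XXV span the cell membrane. In the lung, fibroblasts make most of types I and III, and their deposition is the hallmark of fibrosis. Types II, IX, X and XI are the collagens of cartilage, which the walls of large airways hold.

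The glycine repeat can be read in some of the probes themselves. A glycine codon starts with GG and a Gly-X-Y repeat takes 9 bases, so a probe inside the helix holds GG at a spacing of 9 bases. Of the 43 chain probes, 3 (6.98%) held at least 5 GG at a spacing of 9 bases, against 10 of all 41012 probes (0.0244%). They are shown because they carry the family's coding pattern, with the spaced GG in capitals; the array's rn4 positions are chrX:36958983-36959042 on the minus strand, chr9:22976816-22982770 on the plus strand (a probe whose coordinates span an intron) and chr3:169707548-169707928 on the plus strand (likewise).
Col4a5: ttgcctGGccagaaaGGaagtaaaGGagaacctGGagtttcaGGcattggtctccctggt
Col9a1: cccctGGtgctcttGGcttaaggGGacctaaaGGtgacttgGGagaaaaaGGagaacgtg
Col9a3: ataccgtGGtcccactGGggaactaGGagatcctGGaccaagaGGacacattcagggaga
The Col4a5 probe is the dimmer of that gene's pair, the Col9a1 probe is the one used, and the Col9a3 probe was well above background on 2 arrays.

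Between 56.56% and 77.76% of probes were well above background on the arrays used, and the 75th percentile signal lay between 336.07 and 688.84. Its lowest values were those of NiO arrays 3 (336.07) and 2 (372.38) at 3 days. The probes of Sftpc (surfactant of alveolar type II cells), Ager (alveolar type I cells) and Scgb1a1 (club cells) were well above background on all 21 arrays, as the label of lung requires. The negative control spots of C60 arrays 1 and 2 at 3 days stood 72.62 and 35.87 above their local background, where the other arrays used lay between -3.844 and 17.92; the part of this in the C60 values at 3 days was not tested. No slide carried more than 1 group, which leaves the effect of a slide and that of its group impossible to separate, and the times were scanned on separate days. For C60 at 3 days 4 arrays were read, but the label gives 2 and the deposited group values match arrays 1 and 2, so those were used. Scaling moved the overall balance. The median difference over all genes was -0.12 for NiO and -0.09 for C60 at 1 month, against 0.02 and 0.04 under quantile normalization. Under that normalization, the share of called genes that were higher was 55.5% against 38.7% for NiO at 1 month, 55.4% against 36.8% for C60 at 1 month and 45.6% against 58.5% for NiO at 3 days.

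Between 4 and 6 of the 27 chains were called in each comparison with control. For NiO against control at 3 days, 2 of 27 chains were called higher and 3 lower (18.5%), where 11% of all genes were called higher and 7.82% lower (18.8% in all). For NiO at 1 month, 3 were higher and 3 lower (22.2%), where 11.9% of all genes were called higher and 18.9% lower (30.9% in all). For C60 at 3 days none was higher and 4 were lower (14.8%), where 4.92% of all genes were called, 2.94% higher and 1.98% lower. For C60 at 1 month, 4 were higher and 1 lower (18.5%), where 7.3% of all genes were called higher and 12.5% lower (19.8% in all). The median difference over the chains was -0.15, -0.03, -0.18 and 0.0049 in these 4 comparisons, beside medians over all genes of 0.04, -0.12, -0.03 and -0.09. The particles of one time share their control arrays. Groups that did not overlap array by array numbered 5, 6, 11 and 9 of the 27 chains, where 23.1%, 37.1%, 45% and 27.6% of all genes did not overlap.

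**Figure D1:**
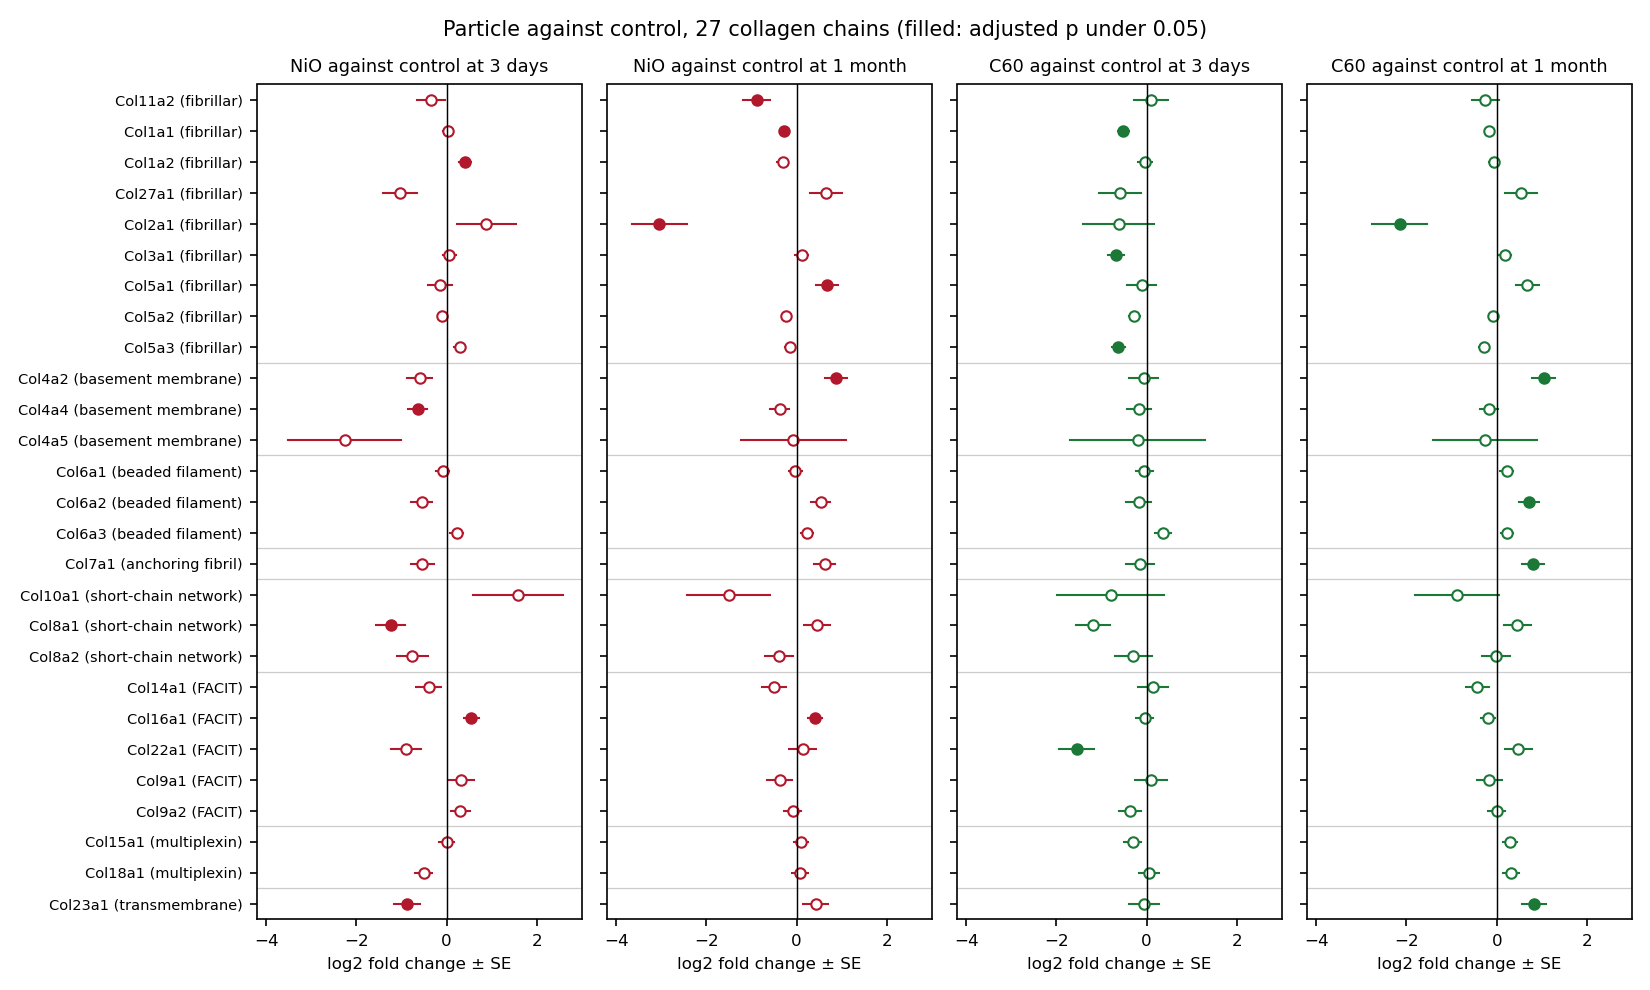
The log2 difference of each particle group from the control of its time (x axis) for the 27 tested chains (y axis, with each chain's class), with bars of 1 SE; filled points have an adjusted p under 0.05. Most points lie near 0, and the longest distance among called chains is that of Col2a1 at 1 month (-3.05 for NiO and -2.15 for C60).

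The 2 chains of type I collagen and the single chain of type III did not move together. Col1a1 read 5.81, 6.07 and 6.03 on the control arrays at 3 days, 5.46 and 5.45 on the C60 arrays, and 5.84, 6.02, 6.04 and 6.07 on the NiO arrays. The NiO arrays lay within the range of the control arrays or level with its top, and both C60 arrays lay below it. The difference was 0.03 for NiO (95% confidence interval -0.18 to 0.23; adjusted p = 0.874) and -0.52 for C60 (SE 0.12; adjusted p = 0.0141). At 1 month Col1a1 read 5.67, 5.83, 5.87 and 5.98 in control, 5.52, 5.75, 5.63 and 5.75 with C60, and 5.47, 5.55, 5.53 and 5.65 with NiO. All NiO arrays lay below all control arrays, with a difference of -0.29 (SE 0.09; adjusted p = 0.0243), and the C60 arrays overlapped control (-0.18, SE 0.09; adjusted p = 0.172). With the mean over the gene's 3 probes in place of the brightest, the NiO value at 1 month turned to 0.13 (adjusted p = 0.517), and that of C60 at 3 days was -0.3 (adjusted p = 0.508). With all 4 C60 arrays at 3 days it was -0.63 (adjusted p = 0.00044).

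Col1a2 read 5.43, 5.61 and 5.69 in control at 3 days and 5.7, 6.01, 6.15 and 6.07 with NiO. The lowest NiO array lay just above the highest control array, and the other 3 lay clear of it. The difference was 0.41 (SE 0.13; adjusted p = 0.0381); over both probes of the gene it was 0.17 (adjusted p = 0.299), and without NiO arrays 2 and 3 it was 0.31 (adjusted p = 0.282). C60 did not pass the test (-0.04, 95% confidence interval -0.36 to 0.29). At 1 month NiO stood at -0.31 against control (SE 0.12; adjusted p = 0.0598) and C60 at -0.06 (SE 0.12). The NiO difference at 1 month was lower than that at 3 days by an interaction term of -0.72 (SE 0.18; adjusted p = 0.00755), which was -0.16 (adjusted p = 0.435) over both probes.

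Col3a1, the type III chain, read 6.37, 6.54 and 6.36 in control at 3 days, 6.13 and 5.36 with C60, and 6.58, 6.31, 6.35 and 6.71 with NiO. Both C60 arrays were below control, the second by far the more, and the NiO arrays bracketed control. C60 differed by -0.68 (SE 0.17; adjusted p = 0.0306), which was -0.3 (adjusted p = 0.483) without C60 array 2 and -0.57 (adjusted p = 0.0137) with all 4 C60 arrays, and NiO by 0.06 (95% confidence interval -0.24 to 0.37). Dcn, a fibroblast proteoglycan, also read lowest on C60 array 2, at 2.69 against 3.93 on array 1 and 4.37 to 4.54 in control. Of the other fibroblast markers, Thy1, Lum and Dpt read lower on C60 array 2 than on array 1. Pdgfra, Fbln1, Tcf21, Pi16, Mfap4 and Mfap5 read higher on array 2. Of the 10 fibroblast markers, all tested, 1 was called lower with C60 at 3 days, where 1.98% of all genes were. The markers' summed level was 6.28 to 6.34 with C60, 6.1 to 6.36 with NiO and 6.48 to 6.57 in control. Their part in these results was not tested. At 1 month Col3a1 did not pass the test for NiO (0.11, SE 0.14) or C60 (0.18, SE 0.14).

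Of the type V chains, which set fibril diameter, Col5a3 moved at 3 days and Col5a1 at 1 month. Col5a3 read -0.15, -0.04 and -0.27 in control at 3 days, -0.83 and -0.75 with C60, and 0.06, -0.006, 0.04 and 0.43 with NiO. C60 lay below and NiO above every control array. The C60 difference was -0.63 (SE 0.14; adjusted p = 0.0146) and the NiO difference 0.29 (SE 0.12; adjusted p = 0.0998). With all 4 C60 arrays, 2 of which the deposited group value leaves out, the C60 value was -0.32 (adjusted p = 0.218). Col5a1 read 0.45, 0.12, 0.67 and 0.98 in control at 1 month, 1.13, 1.35, 1.46 and 1.01 with C60, and 1.12, 1.31, 1.21 and 1.26 with NiO. Every particle array was above every control array. The difference was 0.67 for NiO (SE 0.25; adjusted p = 0.0489), 0.52 (adjusted p = 0.161) without control array 2, and 0.68 for C60 (SE 0.25; adjusted p = 0.0597). Col5a2 stayed between -0.27 and -0.08 in the 4 comparisons and was called in none. Col27a1 was not called against control in any of the 4 either, with values from -1.03 to 0.65.

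**Figure D2:**
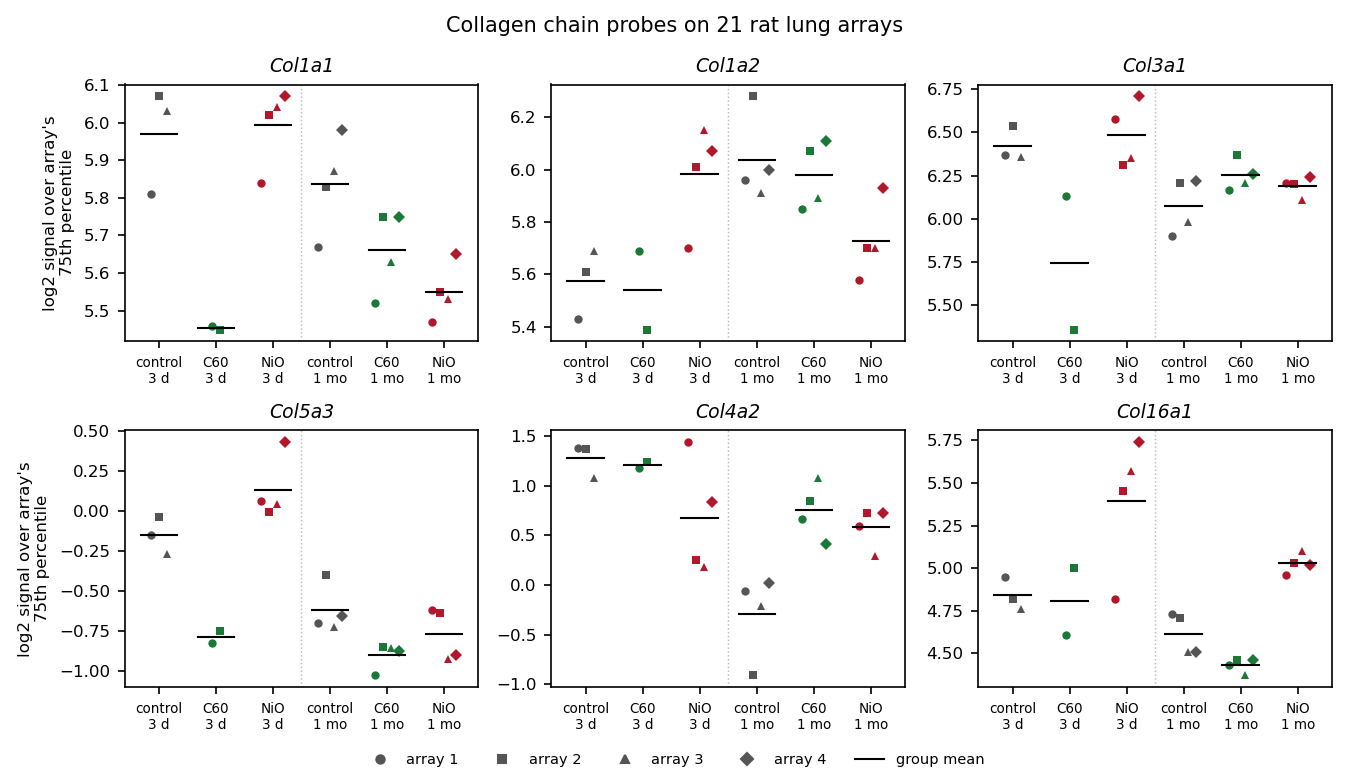
Level of 6 chains (y axis, log2 signal over the array's 75th percentile) on each of 21 arrays, by group (x axis); marker shapes give the array number within the group, colours the exposure, and black lines the group mean. Col1a1 and Col5a3 are low on both C60 arrays at 3 days, Col4a2 is above every control array on all particle arrays at 1 month, and Col16a1 is high with NiO at both times save NiO array 1 at 3 days.

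Among the basement membrane chains, Col4a2 was higher at 1 month after both particles. It read -0.06, -0.91, -0.21 and 0.02 in control, 0.67, 0.85, 1.08 and 0.41 with C60, and 0.59, 0.73, 0.29 and 0.73 with NiO. All 8 particle arrays lay above all 4 control arrays, of which array 2 was the lowest. The difference was 1.04 for C60 (SE 0.25; adjusted p = 0.00992), called under each of the 16 alternatives run, and 0.87 for NiO (SE 0.25; adjusted p = 0.015), which was 0.67 (adjusted p = 0.0588) without control array 2. At 3 days Col4a2 read 1.38, 1.37 and 1.08 in control, 1.18 and 1.24 with C60, and 1.44, 0.25, 0.18 and 0.84 with NiO. NiO arrays 2 and 3 were low and array 1 was at the top of control, for a difference of -0.6 (SE 0.27; adjusted p = 0.117). The change of the NiO difference between times was 1.48 (SE 0.36; adjusted p = 0.00741), and 1.02 (adjusted p = 0.048) without those 2 arrays. Of the 10 endothelial markers, 6 were called lower with NiO at 3 days, where 7.82% of all genes were. At 1 month 1 was called higher and 3 lower with NiO, where 11.9% and 18.9% of all genes were. With C60 at 1 month 3 were called higher and 1 lower, where 7.3% and 12.5% of all genes were. The markers' summed level at 1 month was 8.44 to 8.78 in control, 8.36 to 8.55 with C60 and 8.18 to 8.31 with NiO. Most of that sum is the Kdr probe, at 8.08 to 8.54 in control. The mean level of the 10 markers was 1.55 to 1.76 in control, 1.69 to 1.92 with C60 and 1.53 to 1.64 with NiO. All 10 were above background on all arrays of each group, and their part in the Col4a2 result was not tested.

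Col4a4, a chain of the glomerular and alveolar basement membrane, read 0.24, -0.11 and 0.15 in control at 3 days and -0.95, -0.52, -0.05 and -0.68 with NiO. NiO array 3 lay within control and the other 3 below it. The difference was -0.64 (SE 0.21; adjusted p = 0.0438) at 3 days and -0.38 (SE 0.2; adjusted p = 0.146) at 1 month. Col4a5 did not pass the test in any of the 4 comparisons. Its probe read -6.18 on NiO array 4 at 3 days against 1.58, 1.7 and 1.72 on the other 3, which gives its difference there (-2.26) an SE of 1.25. The gene's other probe, printed above, stood at 0.29 (SE 0.17).

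Col6a2 of the beaded filaments and Col7a1 of the anchoring fibrils were higher with C60 at 1 month. Col6a2 read -0.62, -1.39, -0.65 and -0.44 in control, -0.12, -0.03, 0.17 and -0.25 with C60, and -0.35, -0.18, -0.34 and -0.13 with NiO. Both particles lay above all control arrays. The difference was 0.72 for C60 (SE 0.22; adjusted p = 0.0282), 0.52 (adjusted p = 0.105) without control array 2, and 0.53 for NiO (SE 0.22; adjusted p = 0.072). Col7a1 read -1.39, -2.15, -1.06 and -0.76 in control, -0.49, -0.43, -0.45 and -0.74 with C60, and -0.68, -0.61, -0.87 and -0.7 with NiO. The C60 arrays lay above control and 1 NiO array fell within it. The difference was 0.81 for C60 (SE 0.24; adjusted p = 0.0278), 0.54 (adjusted p = 0.0961) without control array 2, and 0.62 for NiO (SE 0.24; adjusted p = 0.0596). Control array 2 gave the lowest control value at 1 month of Col4a2, Col5a1, Col6a2, Col7a1, Col8a1, Col23a1 and Col27a1, among others. Col6a1 and Col6a3, the partners of Col6a2 in the type VI monomer, were called in none of the 4 comparisons, with 0.22 and 0.23 for C60 at 1 month and -0.03 and 0.23 for NiO.

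Since Col4a2, Col5a1 and Col7a1 were higher on most or all particle arrays at 1 month, their promoters are shown from RefSeq (GRCr8), each as the 130 bases before the start site, 5′ to 3′, with GGGCGG and CCAAT, on either strand, in capitals. The stretches are chr16:84885521-84885650 on the minus strand, chr3:31606750-31606879 on the plus strand and chr8:118483234-118483363 on the plus strand.
Col4a2: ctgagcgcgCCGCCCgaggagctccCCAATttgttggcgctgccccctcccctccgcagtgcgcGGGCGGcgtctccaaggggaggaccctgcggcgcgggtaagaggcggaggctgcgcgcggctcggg
Col5a1: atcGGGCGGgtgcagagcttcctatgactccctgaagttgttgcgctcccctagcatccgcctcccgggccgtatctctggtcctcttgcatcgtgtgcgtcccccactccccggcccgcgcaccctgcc
Col7a1: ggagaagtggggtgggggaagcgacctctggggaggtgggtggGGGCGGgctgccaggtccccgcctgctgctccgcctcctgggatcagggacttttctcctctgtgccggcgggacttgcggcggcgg
GGGCGG, the core of the GC box bound by Sp factors, occurred on either strand 2, 1 and 1 times in these stretches, and CCAAT once in that of Col4a2. Over windows of 300 bases (250 before and 50 after the start), 12 of the 21 tested chains with an entry held GGGCGG (57.1%), as did 33.1% of all 33469 promoters. CCAAT was held by 4 of 21 (19%) and by 37.5% of all. These matches describe letters only. Col1a1, Col2a1, Col3a1, Col6a2, Col14a1 and Col22a1 had no entry.

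The short-chain gene Col8a1, whose product is made by endothelial and smooth muscle cells, was lower at 3 days. It read -1.45, -2.23 and -1.87 in control, -2.81 and -3.27 with C60, and -2.6, -3.35, -3.77 and -2.65 with NiO. All 6 particle arrays lay below all control arrays. The difference was -1.24 for NiO (SE 0.32; adjusted p = 0.0133), -0.78 (adjusted p = 0.198) without NiO arrays 2 and 3, and -1.19 for C60 (SE 0.38; adjusted p = 0.0823). At 1 month it stood at 0.46 for each particle (SE 0.29), and the change of the difference between times was 1.7 for NiO (SE 0.43; adjusted p = 0.00828) and 1.65 for C60 (SE 0.48; adjusted p = 0.0365). A probe outside the name rule, described as a type VIII collagen mRNA, gave -1.46 and -1.56 for NiO and C60 at 3 days and 1.02 and 0.91 at 1 month. Col8a2 was called in none of the 4 comparisons, and neither was Col10a1. Of 8 smooth muscle and pericyte markers 6 were tested, all above background, and at 3 days 2 were called lower with NiO (Tagln, -0.51, and Rgs5, -0.39) and 1 with C60 (Tagln, -0.53). Their summed level was 5.6 to 5.71 in control, 5.19 to 5.51 with NiO and 5.4 to 5.45 with C60. Of 10 endothelial markers, all tested, 6 were called lower with NiO and 1 with C60 at 3 days. Beside both marker lists, 7.82% of all genes were called lower with NiO and 1.98% with C60. The endothelial summed level, mostly Kdr, was 8.22 to 8.32 in control, 7.95 to 8.43 with NiO and 8.21 to 8.22 with C60. The mean level of these markers was 2.22 to 2.24 in control, 1.6 to 1.98 with NiO and 2.05 to 2.06 with C60. Their part in the Col8a1 result was not tested.

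Among the FACIT chains, Col16a1 was higher with NiO at both times. It read 4.95, 4.82 and 4.76 in control at 3 days and 4.82, 5.45, 5.57 and 5.74 with NiO. NiO array 1 lay within control and the other 3 above it. At 1 month it read 4.73, 4.71, 4.51 and 4.51 in control, 4.43, 4.46, 4.37 and 4.46 with C60, and 4.96, 5.03, 5.1 and 5.02 with NiO. All NiO arrays lay above and all C60 arrays below control. The NiO difference was 0.55 (SE 0.16; adjusted p = 0.0253) at 3 days, 0.43 (adjusted p = 0.22) without NiO arrays 2 and 3, 0.35 (adjusted p = 0.113) at 3 days with the mean over probes, and 0.41 (SE 0.15; adjusted p = 0.0429) at 1 month. The dimmer probe gave 0.16 (SE 0.25) at 3 days. C60 stood at -0.04 (SE 0.19) and -0.19 (SE 0.15). Col22a1, of the myotendinous junction, read -4.04, -4.66 and -4.17 in control at 3 days and -5.86 and -5.82 with C60. Neither C60 array was well above background there, so the fitted difference (-1.55; adjusted p = 0.0271) is not a measured size. Measured against the lowest signal that counted as above background, control was at least 1.02-fold higher, and with all 4 C60 arrays the difference was -0.93 (adjusted p = 0.12). Another probe, described as similar to type XXII collagen and outside the rule, gave 1.2 for C60 at 3 days. Col9a2 and Col14a1 were called in none of the 4 comparisons.

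Of the remaining classes, the multiplexins Col15a1 and Col18a1 were called in none of the 4 comparisons, with values from -0.31 to 0.29 and from -0.51 to 0.31. The transmembrane chain Col23a1 read -2.79, -2.73 and -2.39 in control at 3 days and -3, -4.1, -3.62 and -3.29 with NiO. All NiO arrays lay below control, with a difference of -0.87 (SE 0.29; adjusted p = 0.0435), and -0.51 (adjusted p = 0.403) without NiO arrays 2 and 3. At 1 month it read -3.25, -4.59, -3.68 and -3.33 in control and -2.96, -2.88, -2.62 and -3.11 with C60. The C60 arrays lay above control by 0.82 (SE 0.27; adjusted p = 0.0388), or 0.53 (adjusted p = 0.14) without control array 2. Col4a3bp, the ceramide transfer gene kept apart, was called lower with NiO at 3 days (-0.31, SE 0.1) and higher at 1 month (0.33, SE 0.1).

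The largest difference of any called chain was that of a cartilage collagen. Col2a1, the chain of type II collagen, read -4.04, -3.09, -1.67 and -2.37 in control at 1 month, -4.39, -6.58, -4.12 and -4.69 with C60, and -5.22, -5.65, -6.55 and -5.95 with NiO. Every particle array was below every control array, and control arrays 3 and 4 were the highest. The difference was -3.05 for NiO (SE 0.61; adjusted p = 0.00245) and -2.15 for C60 (SE 0.61; adjusted p = 0.0232), or for C60 -1.78 (adjusted p = 0.0588) without control array 3 and -1.61 (adjusted p = 0.082) without C60 array 2. The probe was well above background on 1 of 4 NiO and 3 of 4 C60 arrays at 1 month, so the depth of the fall is not closely measured. At 3 days it read -4.64, -2.73 and -4.42 in control, -3.47 and -5.63 with C60, and -2.76, -3.15, -2.61 and -3.7 with NiO, which overlapped. Control array 2 stood apart from the other 2 there. A second Col2a1 probe was well above background on none of the arrays used and did not pass the filter, so the result rests on 1 probe.

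Of the other cartilage genes, Matn1, Comp, Ucma, Snorc, Col9a1 and Col10a1 were, among the control arrays at 1 month, also highest on arrays 3 and 4. Snorc was higher still on C60 arrays 1 and 4 (-1.77 and -1.52) and NiO array 4 (-1.71). Matn1, a cartilage matrix protein, read -5.2, -5.25, -2.17 and -3.14 on the 4 control arrays. Comp read -2.27, -2.66, -1.66 and -1.7 in control at 1 month, and Col10a1 read -6.46, -6.22, -2.1 and -2.86. On these 3 probes control arrays 3 and 4 were high and arrays 1 and 2 low. Col9a1 read -4.94, -5.36, -3.96 and -4.38, again highest on arrays 3 and 4. Ucma read -1.39, -1.72, -0.33 and -0.64, and Snorc -2.29, -2.39, -2.13 and -1.93. Chad, Col9a2 and Col11a2 did not follow that order. Chad read -4.62, -2.94, -2.97 and -3.28 and Col9a2 -0.21, 0.59, -0.01 and -0.02, both highest on control array 2. Col11a2 read -1.82, -0.81, -0.89 and -1.13 in control and -2.16, -2.08, -2.67 and -1.32 with NiO, which overlap. Its difference was -0.89 (SE 0.29; adjusted p = 0.0291), and control array 2 was the highest there. Of 10 cartilage markers 5 were tested (Comp, Matn1, Chad, Ucma and Snorc) and the other 5 did not pass the filter. Chad was the one called, at -1.28 for NiO and -1.03 for C60 at 1 month. Of all genes, 30.9% were called for NiO and 19.8% for C60. The 5 markers' summed level was -0.3 to 0.76 in control, -0.14 to 0.36 with C60 and -0.36 to -0.15 with NiO. Their part in the Col2a1 result was not tested.

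**Figure D3:**
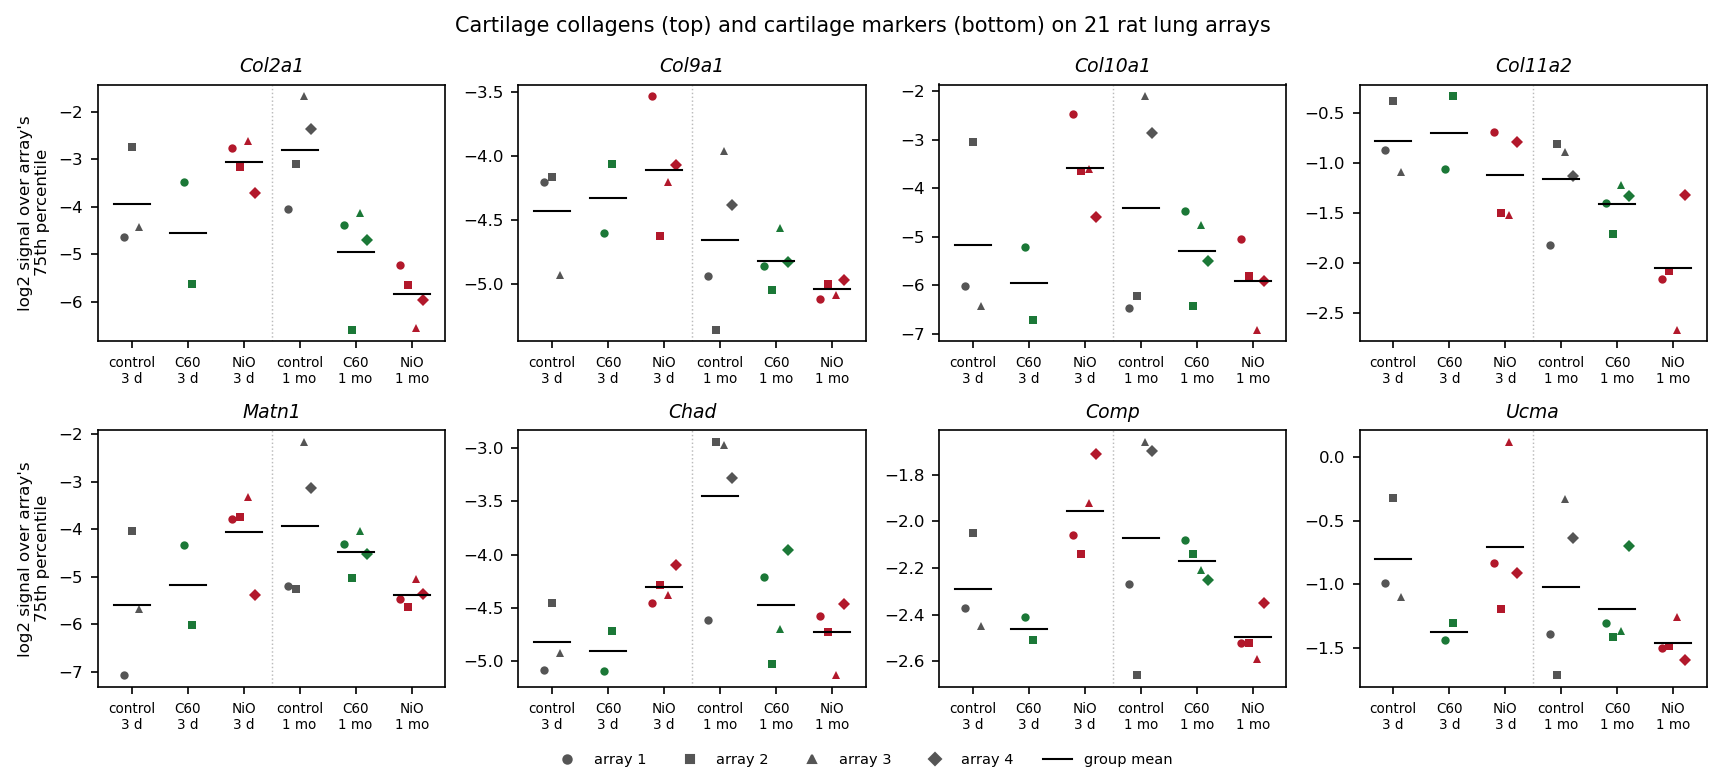
Level of 4 cartilage collagens (top row) and of 4 of the 5 tested cartilage markers (bottom row) on 21 arrays, by group (x axis); the y axis is log2 signal over the array's 75th percentile, shapes give the array number and black lines the group mean. Col2a1, Col9a1, Col10a1, Matn1, Comp and Ucma are highest on control arrays 3 and 4 among the control arrays at 1 month.

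NiO and C60 differed from each other in 3 of 9 tested fibrillar chains at 3 days. Col5a3 was higher with NiO by 0.92 (SE 0.14; adjusted p = 0.000739), Col3a1 by 0.74 (SE 0.17; adjusted p = 0.0127) and Col1a1 by 0.54 (SE 0.11; adjusted p = 0.00745). These 3 were the called chains of 27 (11.1%), all higher, where 5% of all genes were called higher and 2.72% lower (7.72% in all). The groups did not overlap in these 3 or in 5 further chains, 8 in all, as in 25.3% of all genes. Without C60 array 2, the Col3a1 value was 0.36 (adjusted p = 0.236). Col1a1 lost its call without C60 array 1 and without C60 array 2. With all 4 C60 arrays the 3 values were 0.61, 0.64 and 0.65, each still called. With the mean over probes 2 chains were called, where 7.71% of all genes were. Of the 3, only Col1a1 had more than 1 probe. At 1 month limma called no chain between NiO and C60, where it called 0.83% of all genes higher and 0.389% lower (1.22% in all). Before adjustment Col16a1 (0.6, SE 0.15; adjusted p = 0.0582) and Col11a2 (-0.64, SE 0.29; adjusted p = 0.472) had a p under 0.05, and Col16a1 was called under 6 alternative settings, with values from 0.59 to 0.66. The groups did not overlap in 3 chains, as in 12.4% of all genes. The 95% confidence interval of the difference was -0.69 to 0.35 for Col4a2 and -0.31 to 0.08 for Col1a1.

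The difference from control changed between the times in 9 chains with NiO and in 3 with C60. The NiO difference at 1 month exceeded that at 3 days in 6 chains and was below it in 3 (33.3%), where 14.5% of all genes were called in the first direction and 23% in the second (37.5% in all). Besides Col4a2 and Col8a1, the 6 were Col27a1 (1.68, SE 0.52), Col23a1 (1.28, SE 0.39), Col7a1 (1.17, SE 0.36) and Col6a2 (1.07, SE 0.32), with adjusted p from 0.0166 to 0.02. The 3 were Col2a1 (-3.93, SE 0.9; adjusted p = 0.00552), Col1a2 (above) and Col5a3 (-0.44, SE 0.16; adjusted p = 0.0456). Without NiO arrays 2 and 3 at 3 days, 4 chains were called, where 15.8% of all genes were. Col6a2, Col7a1, Col8a1, Col23a1 and Col27a1 were not among the 4. For C60 the change between times was called in 3 chains, all upward (11.1%, where 4.21% of all genes were called upward and 6.2% downward, 10.4% in all), namely Col22a1, Col8a1 and Col3a1 (0.86, SE 0.22; adjusted p = 0.0211). The fitted change of Col22a1 (2.03, SE 0.49) rests on the 3-day C60 group, where the probe was on neither array well above background, so it is not a measured size; with all 4 C60 arrays it was 1.41 (adjusted p = 0.0548).

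Many of these calls lay close to the threshold. When each array of a comparison was left out in turn, Col4a2 with C60 at 1 month, Col2a1 with NiO at 1 month and Col5a3 between NiO and C60 at 3 days kept their calls throughout. Col4a2 with NiO at 1 month lost its call without control array 2 alone, and Col8a1 with NiO at 3 days without control array 1 alone (adjusted p = 0.0759). Between NiO and C60 at 3 days, Col1a1 lost its call without C60 array 1 or 2 and Col3a1 without C60 array 2. At 3 days with NiO, Col16a1, Col1a2 and Col4a4 each lost the call without any of 6 of the 7 arrays (adjusted p up to 0.0879, 0.158 and 0.15), and Col23a1 without any of 5 (up to 0.148). At 1 month with NiO, Col16a1 and Col5a1 each lost it without any of 7 of the 8 arrays (up to 0.0976 and 0.161), Col11a2 without any of 6 (up to 0.103) and Col1a1 without any of 4 (up to 0.067). With C60 at 3 days, Col1a1, Col3a1 and Col22a1 each lost it without any of 4 of the 5 arrays (up to 0.0942, 0.483 and 0.158) and Col5a3 without any of 3 (up to 0.13). With C60 at 1 month, Col23a1 lost it without any of 5 of the 8 arrays (up to 0.14), and Col6a2 and Col7a1 each without any of 4 (up to 0.105 and 0.0961). Of the changes between times, those of Col1a2, Col2a1, Col4a2, Col6a2, Col8a1 and Col27a1 with NiO kept their calls, while Col5a3 with NiO lost its call without any of 8 of 15 arrays (up to 0.114) and Col8a1 with C60 without any of 7 of 13 (up to 0.161).

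Probes of one gene did not always tell the same story. In 8 chains more than 1 probe passed the filter, and in all 8 the brightest was the one nearest the 3′ end. At 1 month 8 of the 9 dimmer probes gave a higher NiO difference than the brightest, and 6 had the opposite sign, with the same counts for C60. Col1a1 gave -0.29 (SE 0.09) for NiO at 1 month on its brightest probe and 0.5 (SE 0.22) and 0.19 (SE 0.2) on probes 221 and 274 bases upstream in rn4. Col1a2 gave -0.31 (SE 0.12) and, 2905 bases upstream, 0.34 (SE 0.2). Both pairs lie on opposite sides of 0. Col16a1 gave 0.41 (SE 0.15) and 1.12 (SE 0.23), and Col5a1 0.67 (SE 0.25) and 0.91 (SE 0.29), each of one sign. At 3 days 3 of the 9 dimmer probes lay above the brightest for NiO and 7 for C60.

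**Figure D4:**
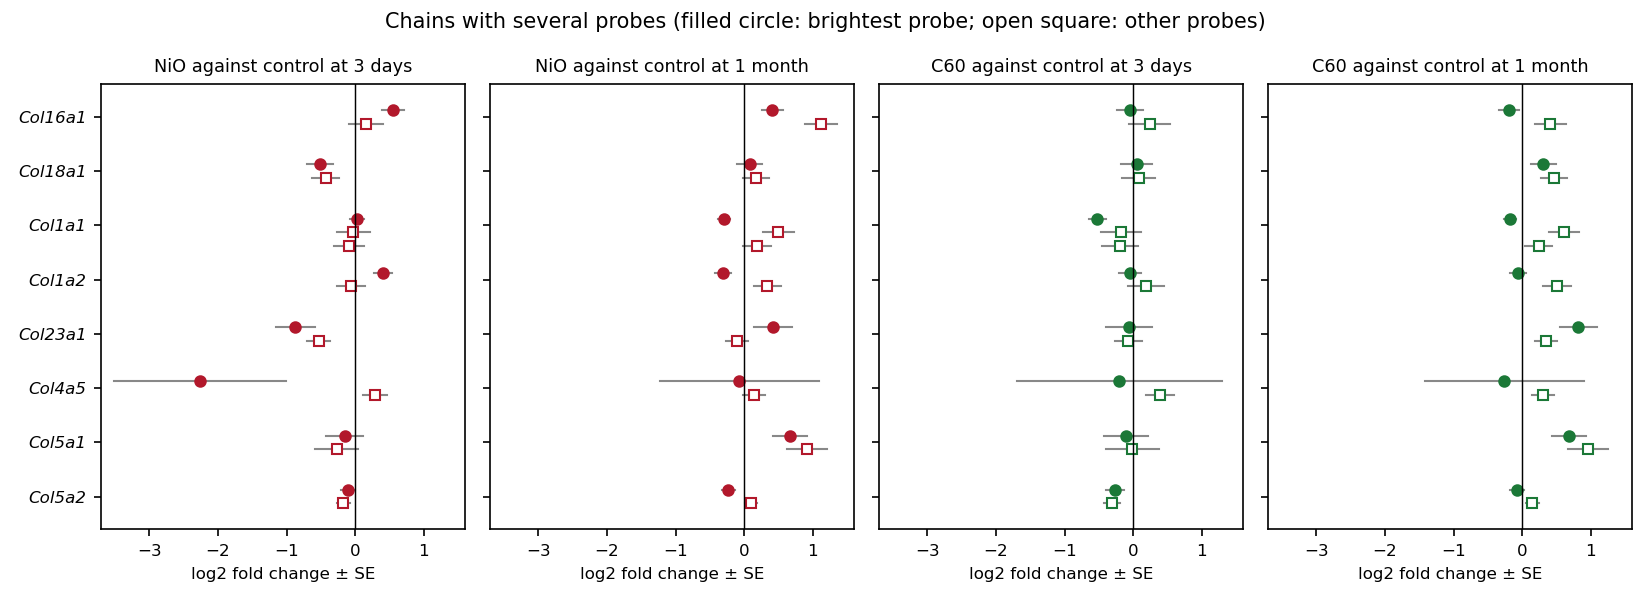
The log2 difference from control (x axis, bars 1 SE) for each probe of the 8 chains with several probes (y axis); filled circles are the brightest probe and open squares the others. At 1 month the open squares of Col1a1 and Col1a2 lie to the right of 0 and their filled circles to the left, for NiO and C60 alike, while both probes of Col5a1 lie to the right.

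Some collagens are on the array under other names and were not members. Their probes gave -0.32 and -0.7 for NiO at 3 days and 1 month in the case of a type IV alpha-3 fragment. A type XII fragment, read by a pair of probes, gave -0.86 and -0.55 at 3 days and 0.27 and 0.22 at 1 month. A type IX fragment gave -1.22 for NiO and -0.83 for C60 at 1 month, beside -0.38 (SE 0.27) and -0.16 (SE 0.27) on the Col9a1 probe. A probe described as similar to type IX alpha-2 gave 1.27 for NiO at 3 days. At 1 month it gave -0.94 for NiO and -0.54 for C60. The Col9a2 probe gave 0.3 (SE 0.21), -0.09 (SE 0.19) and 0.0049 (SE 0.19) in these 3 comparisons. These are given as values only.

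Of 27 tested enzymes and chaperones that mature collagen (30 listed), 7 were called higher and 4 lower with NiO at 1 month, with a median of 0.22, where 11.9% of all genes were called higher and 18.9% lower (30.9% in all). At 3 days 1 was higher and 1 lower, where 18.8% of all genes were called. Among the called genes the largest rises at 1 month were those of Colgalt1 (0.78, SE 0.23), which adds galactose to hydroxylysine, Crtap (0.73, SE 0.25), of the prolyl 3-hydroxylase complex, and the crosslinking oxidase Loxl3 (0.58, SE 0.2). Serpinh1, the collagen chaperone HSP47, rose by 0.43 (SE 0.11; adjusted p = 0.00823), and P4hb, a prolyl 4-hydroxylase subunit, by 0.48 (SE 0.1; adjusted p = 0.00263). The largest falls were in Adamts3, a procollagen N-propeptidase, Tll1, which cleaves C-propeptides (-1.06, SE 0.24), and P4ha3 (-0.65, SE 0.2). Adamts3 read -5.16, -4.52, -3.92 and -4.3 in control and -5.72, -6.68, -6 and -5.73 with NiO, where it was on no array well above background. Control was at least 2.31-fold higher there, and at least 1.83-fold higher than NiO at 3 days. Fkbp10, a prolyl isomerase of the endoplasmic reticulum, stood at 0.62 (SE 0.24; adjusted p = 0.0566). Without control array 2, 6 genes of the list were called for NiO at 1 month, where 20.9% of all genes were. Colgalt1, Crtap and Loxl3 were not among the 6. Crtap and Loxl3 each lost the call without any of 5 of the 8 arrays (adjusted p up to 0.135 and 0.143). With C60, 5 genes of the list were called higher and 3 lower at 1 month, where 19.8% of all genes were called, and none higher and 1 lower at 3 days, where 4.92% were. At 1 month Crtap (0.78), Fkbp10 (0.74) and Loxl3 (0.73) rose most, and Adamts3 (-0.93), Tll1 (-0.86) and Plod2 (-0.39) fell. Adamts3 was well above background on 1 of 4 C60 arrays there, so the size of its fall is not closely measured. Its call was lost without any of 6 of the 8 arrays. Without control array 2, or C60 array 2 or 3, 1 gene of the list was called, where 10.9%, 9.82% and 12% of all genes were. Bmp1, the main C-propeptidase, rose with NiO at 3 days (0.57, SE 0.19; adjusted p = 0.0447), and lost that call without any of 6 of the 7 arrays (up to 0.134).

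Of 12 tested genes for collagen receptors and breakdown (16 listed), 2 were called higher and 1 lower with NiO at 3 days, where 11% of all genes were called higher and 7.82% lower (18.8% in all). Ctsk, the collagen-degrading cathepsin K that is also a macrophage marker here, read 0.02, 0.45 and 0.53 in control and 0.97, 1.52, 1.75 and 1.54 with NiO, all above control (1.11, SE 0.2; adjusted p = 0.00134). Mmp14, a membrane-bound collagenase, rose by 0.56 (SE 0.11) at 3 days and 0.39 (SE 0.1) at 1 month. Itga11, a subunit of a collagen-binding integrin of fibroblasts, read -2.87, -3.26 and -3 in control at 3 days and -3.73, -5.44, -5.01 and -4.28 with NiO, where 2 of 4 arrays were well above background. It fell by 1.57 on the log2 scale (SE 0.33), and stood at -0.96 (adjusted p = 0.0716) without NiO arrays 2 and 3. Ctsk is among the 6 macrophage markers tested, so their summed level holds Ctsk itself. That level at 3 days was 4.67 to 4.81 in control, 4.89 to 5.36 with NiO and 4.69 to 5.07 with C60. The part of the other markers in the Ctsk result was not tested. With C60, Itgb1 rose at 1 month (0.42, SE 0.13). That call was lost without any of 7 of the 8 arrays (adjusted p up to 0.0786) and under quantile normalization. At 3 days limma called no gene of the list with C60, where it called 4.92% of all genes. None of the list had an unadjusted p under 0.05 either.

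In the TGF-beta axis, 13 of 14 listed genes were tested. With NiO at 1 month 2 were called higher and 2 lower, and with C60 2 higher and 1 lower, against the 30.9% and 19.8% of all genes. With NiO at 1 month Tgfb1, the ligand most tied to collagen production, rose by 0.74 (SE 0.13; adjusted p = 0.00101) and its receptor Tgfbr2 by 0.54 (SE 0.11), while the co-receptor Tgfbr3 (-0.9, SE 0.21) and the latent-complex protein Ltbp1 (-0.89, SE 0.2) fell. Tgfb1 read -1.21, -1.76, -1.21 and -1.12 in control, -0.61, -0.67, -0.51 and -0.54 with NiO, and -0.85, -0.75, -0.73 and -0.76 with C60. All particle arrays were above control. With C60 at 1 month Tgfb1 (0.55, SE 0.13) and Tgfb3 (0.45, SE 0.15) rose and Tgfbr1 (-0.77, SE 0.17) fell. Tgfb3 lost its call without any of 7 of the 8 arrays (adjusted p up to 0.158), and Tgfb1 kept its call for both particles without each. At 3 days Smad7, an inhibitor of the pathway, fell with NiO (-0.52, SE 0.16; adjusted p = 0.0329), or -0.4 (adjusted p = 0.227) without NiO arrays 2 and 3, and its call was lost without any of 5 of the 7 arrays. With C60 at 3 days limma called no gene of the list, where it called 4.92% of all genes. Before adjustment 1 gene of the list in each direction had a p under 0.05.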

How the data were processed

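The arrays were 1-colour Agilent whole rat genome slides labelled with Cy3. The deposited scanner files give an intensity per spot that the authors' Feature Extraction 9.5.3.1 had background-corrected, per the file headers. The authors also deposited 1 ratio per probe and group, and the deposited values of C60 at 3 days match arrays 1 and 2 of 4 (median absolute log2 difference 0.00082), so those 2 were used. Here log2 of the processed intensity was taken minus each array's 75th percentile. Probes well above background on all used arrays of at least 1 group were kept (28678 of 41012), and the brightest probe stood for its gene. limma 3.58.1 (R 4.3.3) fitted 6 group means. That 1 array is 1 rat is read from the labels' group sizes; if not, p-values measure technical spread. The fit was tested on simulated data. Files carry no usable read depth; the number of arrays limits the precision. The genes named are up to 10 called chains with the largest difference in each comparison, 14 chains named whatever their values (Col4a1 and Col4a3 were not on the array under those names), and of each pathway list up to 3 called rises and 3 falls; Serpinh1, P4hb, other uncalled chains and probes outside the rule were added after their values were seen. The members and lists were chosen with earlier results of these data known. Alternatives were normexp background correction, quantile normalization, other filters, other arrays, a mean over probes, another prior, and, chosen after seeing the data, array position as a block and NiO arrays 2 and 3 left out.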

Additional observations from a re-analysis of the deposited data

Results flagged for a closer look

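Among 108 group values of the chains with 4 arrays, 4 had 1 array far from the other 3 by Dixon's test, which chance does in about 1 of 20. The Col4a5 probe read -6.18 on NiO array 4 at 3 days, where the others read 1.58 to 1.72. Col5a3 read 0.43 on that array against -0.006 to 0.06, and -1.03 on C60 array 1 at 1 month against -0.88 to -0.85. Col7a1 read -0.74 on C60 array 4 at 1 month against -0.49 to -0.43.

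The particle's difference from control changed between the times, by an interaction term, in 12 cases. For NiO the change (1 month minus 3 days, log2) was 1.7 in Col8a1, 1.68 in Col27a1, 1.48 in Col4a2, 1.28 in Col23a1, 1.17 in Col7a1, 1.07 in Col6a2, -0.44 in Col5a3, -0.72 in Col1a2 and -3.93 in Col2a1. For C60 it was 2.03 in Col22a1, 1.65 in Col8a1 and 0.86 in Col3a1. The Col22a1 value is not a measured size, since neither C60 array at 3 days was well above background. Time and scan day cannot be told apart, though each difference is taken within a day.

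C60 arrays 3 and 4 at 3 days entered the fits only where all 4 C60 arrays are named. Both lay above every control array in 3 of 27 chains (Col4a5, Col6a3 and Col7a1) and below every control array in 8, among them Col1a1 (5.18 and 5.29 against 5.81 to 6.07) and Col3a1 (5.96 and 5.95 against 6.36 to 6.54). Col5a3 read -0.27 and -0.05 there, within control (-0.27 to -0.04), where arrays 1 and 2 read -0.83 and -0.75.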

How the results depend on the processing

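The calls of Col4a2 with C60 at 1 month, of Col2a1 with NiO at 1 month, and of Col2a1 and Col4a2 in the change of the NiO difference held under every alternative that could be run for them; each other called chain lost its call under at least 1. Col1a1 with NiO at 1 month turned to 0.13 with the mean over probes, the only called value that reversed. Fitting only the groups compared gave 0 called chains for NiO at 3 days (5 in the fit of 6 groups). It gave 1 for C60 at 3 days (4) and 2 at 1 month (5). For NiO against C60 it gave 0 at 3 days (3) and 1 at 1 month (0). In that order, 3.19%, 2.58%, 12%, 0.191% and 1.76% of all genes were called there. In the fit of 6 groups these shares were 18.8%, 4.92%, 19.8%, 7.72% and 1.22%. For NiO at 3 days the count was 3 with the mean over probes, 2 with no filter and 3 with normexp. Of all genes, 18.7%, 10.1% and 12.9% were called there. Without NiO arrays 2 and 3 the count was 1, where 6.25% of all genes were called. That setting also left 4 in the change of the NiO difference (9), where 15.8% of all genes were called (37.5%). For C60 at 3 days the count was 2 with normexp and 2 with quantile normalization, where 3.9% and 5.53% of all genes were called. For C60 at 1 month it was 3 with the filter on every array, where 20.3% were. NiO against C60 at 3 days had 7 with all 4 C60 arrays (23.8% of all genes), 1 with normexp (4.24%) and 1 with quantile normalization (8.15%). At 1 month it had 1, Col16a1, with each of these: the filter on every array, the mean over probes, normexp, quantile normalization, and the trended prior. Under these settings 1.01% to 1.73% of all genes were called. The change of the C60 difference had 6 with all 4 C60 arrays (3), where 22.6% of all genes were called (10.4%).

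Leaving out 1 array in turn, the called chains ranged from 0 to 12 for NiO at 3 days, 2 to 6 for NiO at 1 month, 0 to 2 for C60 at 3 days, 1 to 6 for C60 at 1 month, 1 to 9 for NiO against C60 at 3 days, 7 to 13 for the change with NiO and 0 to 3 with C60. The highest counts at 3 days, 12 and 9, came without NiO array 1, where 38.3% and 28.4% of all genes were called. The 0 for NiO came without control array 1, where 8.8% of all genes were called. With no array left out, 18.8% of all genes were called for NiO and 7.72% for NiO against C60. The 2 for NiO at 1 month came without NiO array 1, 2 or 3 or control array 2. Of all genes, 20.9% to 23.7% were called there, against 30.9% with no array left out. The 1 for C60 at 1 month came without C60 array 2, where 9.82% of all genes were called, against 19.8%. Array position as a block, chosen after seeing the data, gave 4 called chains for NiO at 3 days and 4 at 1 month. For C60 it gave 5 at 3 days and 5 at 1 month. In that order, 19.1%, 30.1%, 4.67% and 19% of all genes were called. No paired analysis was run, since the study assigned separate rats to each group and time.

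Of the maturation genes with NiO at 3 days (2), no filter gave 1, normexp 0, only the compared groups 1, quantile normalization 4 and NiO arrays 2 and 3 left out 1, and single arrays left out 1 to 10. With C60 at 3 days (1) all 4 arrays gave 3, quantile normalization 2, and the filter on every array, normexp and the compared groups 0 each; single arrays gave 0 to 1. With C60 at 1 month (8) quantile normalization gave 4 and single arrays 1 to 8; with NiO at 1 month (11) single arrays gave 6 to 12. Of the receptor and breakdown genes, NiO at 3 days (3) had 1 in the compared groups, 5 with the trended prior and 3 to 7 with single arrays left out. NiO at 1 month (1) had 2 under quantile normalization, and C60 at 1 month (1) had 2 in the compared groups, 0 under quantile normalization and 0 to 1 with single arrays left out. Of the TGF-beta genes, NiO at 3 days (1) had 2 with array position as a block, 3 with the filter on every array, 2 with normexp, 2 with the trended prior, 0 with no filter, in the compared groups or without NiO arrays 2 and 3, and 0 to 4 with single arrays left out. C60 at 1 month (3) had 1 in the compared groups and, with single arrays left out, 2 to 4. The cause of these shifts was not tested. The dim probes of Col10a1, Col22a1 and Adamts3 have only bounds in some groups, Col2a1 was above background on 1 of 4 NiO arrays at 1 month, and 2 C60 arrays at 3 days limit that comparison.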
